A study of Bos indicus with 8 samples.

Results

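The nuclear genes for subunits of oxidative phosphorylation were followed in cattle cumulus cells, the follicle cells around the oocyte, cultured with or without follicle-stimulating hormone (FSH). Members were the genes whose array symbol begins with NDUFA, NDUFB, NDUFC, NDUFS or NDUFV and a number (complex I), UQCR (complex III), COX4 to COX8 (complex IV) or ATP5 (complex V). The rule took 76 of the 15229 genes with a symbol on the array, carried by 116 probes, and used symbols and brightness only, not the response to FSH. They comprised 37 genes of complex I, 7 of complex III, 16 of complex IV and 16 of complex V, each represented by its brightest probe. Of these, 75 were bright enough to be tested, out of 13309 genes tested. The exception was COX6A2, known as the muscle isoform of a complex IV subunit, which exceeded the detection limit on 0 of 8 arrays in the FSH channel and 1 of 8 in the control channel. The symbols come from an old annotation: COX4 is the earlier name of COX4I1, and UQCR that of UQCR11. NDUFA4 is counted here in complex I by its name, although its product is now assigned to complex IV. COX4NB and ATP5S, which the name rule also takes, are not known as subunits of a complex, and COX7A2L encodes a factor of respiratory supercomplexes.

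Cumulus-oocyte complexes came from slaughterhouse ovaries labelled Bos indicus, from follicles of 3 to 6 mm, and were cultured for 6 h. Both arms held adenosine (3 mM), estradiol (1 µg/ml), fetal bovine serum (10%), pyruvate (0.2 mM) and gentamicin, and the FSH arm also held recombinant human FSH (0.5 µg/ml). The control was therefore adenosine without FSH, and animals of unstated age were pooled, and the labels put 10 in each pool without saying of what. RNA of 4 FSH pools and 4 control pools was amplified and hybridised in pairs to 8 2-colour arrays on 2 slides. Slide 1 carried FSH in Cy5 and slide 2 carried it in Cy3, so slide and dye orientation cannot be told apart. The 2 arrays of a replicate hold the same RNA and were averaged, which left n = 4. The labels do not say whether the pools came from separate cultures or collections, so the spread between replicates may be partly technical. All 12 granulosa and cumulus markers exceeded the detection limit in 7 of the 8 pools, and 10 of 12 did so in control pool 3.

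Oxidative phosphorylation is the route by which mitochondria make most of their ATP. Complex I takes electrons from NADH, complex III passes them from ubiquinol to cytochrome c, and complex IV passes them to oxygen. The protons these complexes pump flow back through complex V, the ATP synthase. Most subunits are encoded in the nucleus and a few in mitochondrial DNA. Cumulus cells are known to pass pyruvate from glycolysis to the oocyte, which relies on its own mitochondria for ATP. Of the 26 symbols searched for the mitochondrially encoded subunits, 0 were found on the array, so the values below concern the nuclear subunits alone. UQCRFS1 and COX4I2 had no probe under those symbols.

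Across the 4 replicates the subunit genes did not move in a common direction with FSH. Values are log2 ratios of FSH over control, so that 1 is a doubling. The median over the 75 members was 0.025, against 0.0039 over all tested genes. In the limma fit over all genes 0 of 75 members passed an adjusted p of 0.05, where 0.00% of the 13309 genes passed, and their adjusted p lay between 0.283 and 0.999. Means were below 0 for 33 members (44%) and above 0 for 42, while 48.9% of all genes had a mean below 0. By complex, the median was 0.041 for complex I, -0.054 for complex III, -0.012 for complex IV and 0.095 for complex V. The means of 59 members lay within 0.25 of 0, and those of 72 lay within 0.5, as did those of 96.4% of all genes. The 95% interval of a member's mean reached a median of 0.37 to either side, from 0.19 to 1.30 over the members. Shifts smaller than that in a single gene were not detectable. The interval is not adjusted for the 13309 genes, so larger shifts could be missed too: members whose interval excluded 0, such as COX7A2L, did not pass. In bulk RNA, fewer cells of a type and less RNA per cell cannot be told apart.

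**Figure D1:**
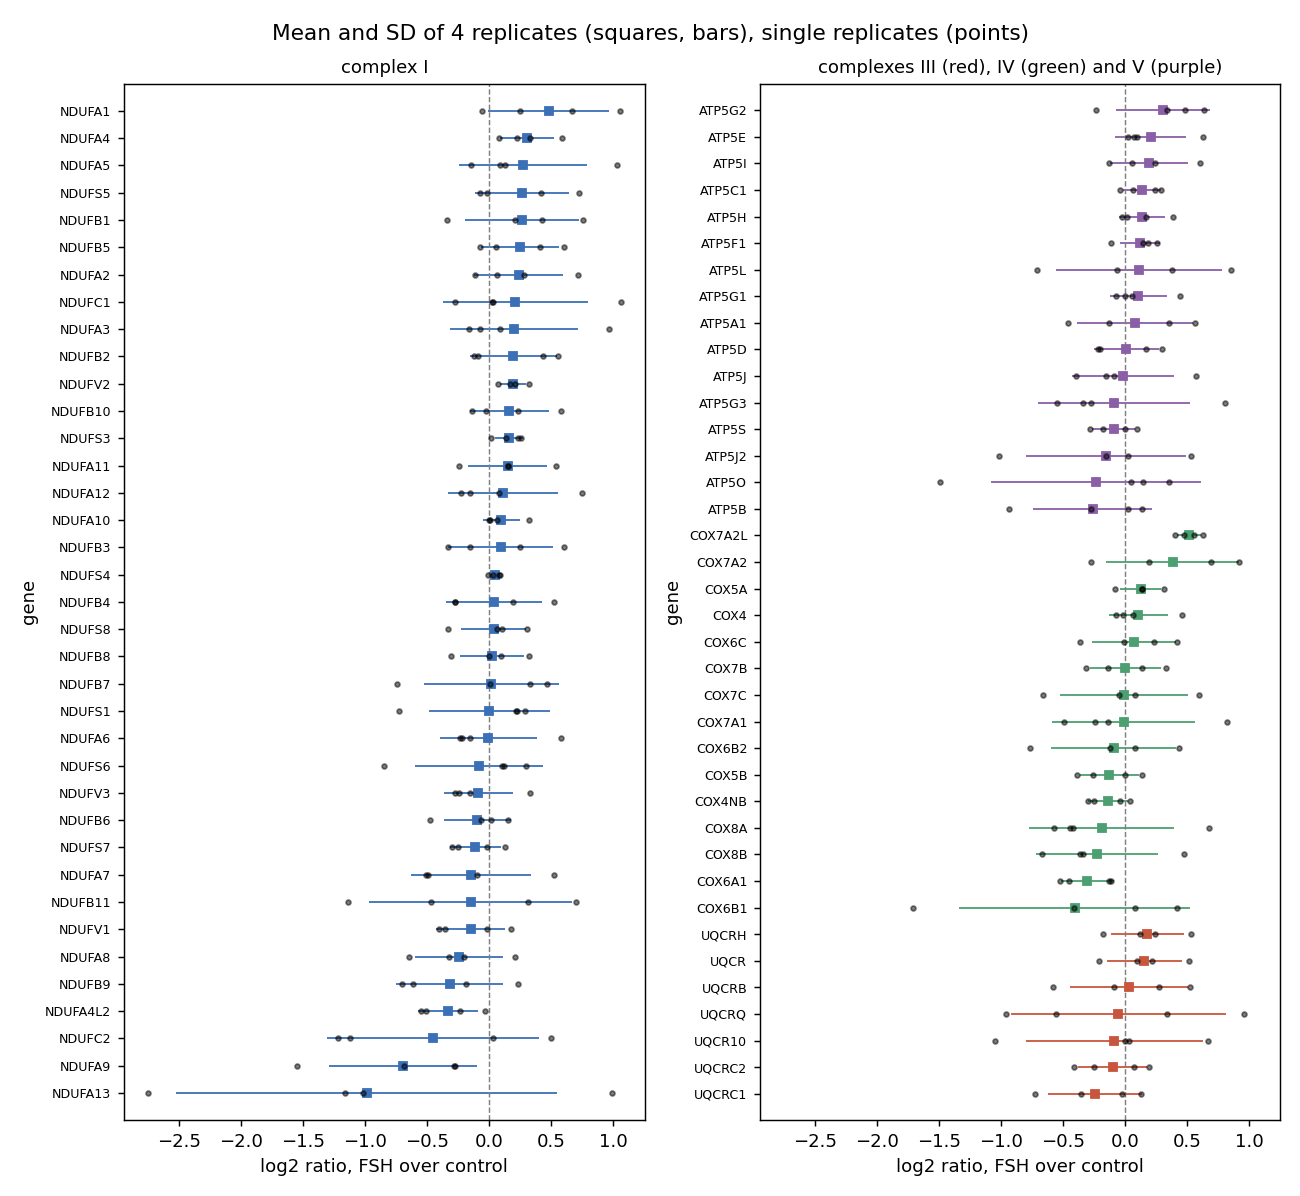
Mean log2 ratio of FSH over control of each of the 75 tested genes (squares), with the SD of 4 replicates (bars) and the single replicates (black points), by complex. For most genes the replicates lie on both sides of 0, and COX7A2L has the highest mean, with all 4 replicates above 0.

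At an unadjusted p under 0.05 in limma, 6 of 75 members (3 lower, 3 higher) stood apart from 0, against 11.1% of all genes (5.33% lower and 5.75% higher). The 3 lower members were below 0 in all 4 replicates, a pattern seen in 8.88% of all genes. Ratios were above 0 in all 4 replicates for 6 members, namely NDUFA10, NDUFA4, NDUFS3, NDUFV2, COX7A2L and ATP5E, against 11.4% of all genes. These shares lie close to or below the background, so the counts say nothing particular about the subunit genes.

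COX7A2L was the member with the smallest p. Its product, also called SCAF1, links complexes III and IV in supercomplexes, as known from mouse and human cells. The log2 ratio was 0.40, 0.47, 0.56 and 0.63 in replicates 1 to 4, a mean of 0.52 ± 0.098 (SD, n = 4; 95% interval 0.32 to 0.72), or 1.43-fold. In the deposited ratios all 4 replicate means were positive and close together, and the limma adjusted p was 0.283 over all genes. The normalized log2 signal of the single channels was 13.33, 13.54, 13.45 and 13.60 in FSH pools 1 to 4. In control pools 1 to 4 it was 13.24, 13.16, 12.89 and 13.08. In replicate 1 the signals of the 2 pools, 13.33 and 13.24, lay closer together than the deposited ratio of 0.40. The closeness of the 4 ratios was thus not seen in the single channels. The FSH pools did not overlap with the control pools. It was the 1 member of 75 with all FSH pools above all control pools, a state of 1.84% of all genes, and 0 members had all FSH pools below, a state of 1.97%. Both other tested probes of the gene also had means above 0, at 0.34 ± 0.15 and 0.43 ± 0.29. The mean was 0.33 on slide 1 (FSH in Cy5) and 0.70 on slide 2 (FSH in Cy3). The single arrays were further apart than the replicate means, from 0.25 to 0.38 on slide 1 and 0.43 to 0.88 on slide 2. In replicate 3 the 2 arrays gave 0.25 and 0.87. From scanner intensities with loess the mean was 0.39 (limma adjusted p = 0.550). With the 8 arrays entered singly and the replicate block, the limma adjusted p was 0.0501, and with a dye term added it was 0.0400, where 1.88% and 1.44% of all genes passed. The block fits treat the same 4 pairs of pools as 8 arrays with an estimated correlation.

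In complex I, the core subunits, most of which carry the flavin or iron-sulphur clusters, showed small means. NDUFS1, which encodes the largest core subunit, had ratios of 0.23, 0.21, -0.72 and 0.29 and a mean of 0.0023 ± 0.49 (SD, n = 4). Replicate 3 stood on the other side of 0 from the rest. Its 3 tested probes disagreed, with means of 0.0023, -0.18 and 0.31. NDUFV1, the flavin-binding subunit that oxidises NADH, stood at -0.15 ± 0.28 (-0.046 from scanner intensities with loess) and NDUFS7, which carries the last iron-sulphur cluster before ubiquinone, at -0.11 ± 0.20. The core genes NDUFV2 (0.19 ± 0.10) and NDUFS3 (0.16 ± 0.11) were above 0 in all 4 replicates with small spread, and neither passed the adjusted test. From scanner intensities with loess their means were 0.081 and 0.022, and a second probe of NDUFS3 had a mean of -0.0023. Over the 6 core genes the median was 0.020, with a range from -0.15 to 0.19.

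The supernumerary subunits of complex I, which surround the core, ranged more widely, from -0.99 to 0.48 over 31 genes with a median of 0.047. The 31 are all genes with a complex I name outside the core, so NDUFA4 and NDUFA4L2 are counted among them by name only. NDUFA1, needed in mammals for assembly of the membrane arm, had ratios of 0.25, -0.061, 0.67 and 1.06. Its mean of 0.48 ± 0.49 (limma adjusted p = 0.426) was the highest of complex I. Its signal was 12.18, 12.22, 13.06 and 13.07 in FSH pools 1 to 4 and 11.97, 12.21, 12.52 and 12.20 in the control pools, so the groups overlapped. NDUFA4 had ratios of 0.22, 0.33, 0.59 and 0.077 and a mean of 0.31 ± 0.22 (limma adjusted p = 0.399). From the scanner intensities with loess its mean was 0.16, with an unadjusted p of 0.353 in limma.

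NDUFA9, which stabilises the junction of the peripheral and membrane arms, had ratios of -0.69, -0.28, -0.27 and -1.55, a mean of -0.70 ± 0.60 (limma adjusted p = 0.362). Each was below 0, and replicate 4 had the largest difference. Its signal was 10.91, 11.15, 9.50 and 9.65 in the FSH pools and 11.63, 11.52, 9.93 and 11.26 in the control pools. FSH pools 3 and 4 and control pool 3 were low, and the other 5 pools were high. NDUFA4L2, a paralogue of NDUFA4 known as a hypoxia-induced gene, had ratios of -0.24, -0.55, -0.032 and -0.51 and a mean of -0.33 ± 0.24 (limma adjusted p = 0.394). Its probe was dim, detected on 8 of 8 arrays for FSH and 7 of 8 for control, and its mean was -0.13 from the scanner intensities with loess. Including it, 9 of the 75 tested members, among them NDUFV1, UQCRC1, UQCRH and NDUFA10, fell below the limit on at least 1 control array.

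NDUFA13, also known as GRIM-19, showed the lowest mean and the widest spread of any member, -0.99 ± 1.54 (SD, n = 4; limma adjusted p = 0.547). Its ratios were -2.76, -1.17, 1.00 and -1.02 in replicates 1 to 4, so replicate 3 alone was positive. The signal in FSH pools 1 to 4 was 8.90, 9.13, 9.75 and 9.67, and that in control pools 1 to 4 was 11.38, 10.03, 9.0 and 10.54. Control pool 3 lay within the range of the FSH pools and the other 3 control pools above it. Without replicate 3 its mean was -1.65. NDUFC2, another membrane-arm subunit gene, had ratios of -1.22, -1.12, 0.50 and 0.030, low in replicates 1 and 2 and at or above 0 in replicates 3 and 4.

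In complex III, UQCRC1, a core protein on the matrix side, had ratios of 0.13, -0.36, -0.021 and -0.73 and the lowest mean, -0.24 ± 0.38 (limma adjusted p = 0.591). UQCRH, the hinge protein that holds cytochrome c1, had ratios of 0.24, 0.12, 0.53 and -0.18 and the highest mean, 0.18 ± 0.29 (limma adjusted p = 0.639). Both crossed 0 between replicates. From scanner intensities with loess their means were -0.13 and 0.071. The means of the 5 small subunits lay between -0.086 and 0.18. UQCRQ, a small subunit that binds ubiquinone, had ratios of -0.96, -0.55, 0.96 and 0.34, which differed in sign between the first 2 and the last 2 replicates.

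In complex IV, COX5A, one of the ubiquitous nuclear subunits, stood at 0.13 ± 0.16, and COX4, which regulates the enzyme by ATP binding, at 0.11 ± 0.24. COX6A1, the non-muscle counterpart of COX6A2, had ratios of -0.53, -0.45, -0.13 and -0.11, a mean of -0.30 ± 0.21 (limma adjusted p = 0.399). Its signal was 13.89, 14.01, 14.24 and 14.12 in the FSH pools and 14.42, 14.41, 14.13 and 14.43 in the control pools. The FSH pools lay below 3 of the control pools and overlapped with control pool 3. Its other 2 tested probes had means of -0.18 and -0.19. COX6B1, a subunit on the intermembrane face of the enzyme, had the lowest mean of the complex, -0.41 ± 0.93 (limma adjusted p = 0.698). Its ratios of -0.41, 0.080, 0.42 and -1.71 rested on replicate 4, and without that replicate the mean was 0.029. COX7A2, an isoform of liver and most other tissues, had ratios of -0.28, 0.19, 0.92 and 0.69, and COX7A1, known from heart and skeletal muscle, had ratios of -0.14, -0.24, 0.82 and -0.49. Neither isoform kept its sign across the replicates.

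In complex V, the F1 head makes ATP and the c-ring turns as protons pass. ATP5B, the catalytic beta subunit gene, had ratios of -0.28, 0.14, -0.94 and 0.026 and the lowest mean, -0.26 ± 0.48 (limma adjusted p = 0.634). ATP5A1, the alpha subunit gene, had ratios of -0.13, 0.35, -0.46 and 0.57 and a mean of 0.082 ± 0.47. Both were lowest in replicate 3. ATP5G2, one of the c-ring genes, had ratios of 0.34, 0.48, 0.63 and -0.23 and the highest mean, 0.31 ± 0.38 (limma adjusted p = 0.516). ATP5E, the epsilon subunit gene of the F1 part, was above 0 in each replicate, at 0.10, 0.069, 0.63 and 0.024.

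The ratios of the members varied between replicates. Over the members, the median ratio was -0.044, -0.0028, 0.47 and -0.13 in replicates 1 to 4, while the median over all genes lay between 0.012 and 0.015. Replicate 3 was the highest of the 4 replicates for 53 of 75 members, and for 29.4% of all genes. In it 62 members (82.7%) were above 0, against 51.8% of all genes, and 36 members (48%) exceeded 0.5, against 8.09% of all genes. Under -0.5 lay 16 members (21.3%) in replicate 4, against 9.87% of all genes, and 11 members (14.7%) in replicate 1, against 2.73%. In replicates 2 and 3 these counts were 4 and 2. Over the members the median SD between replicates was 0.38. It was 0.21 over all genes, and 0.29 over the 6767 genes, 66 of them members, that exceeded the limit on all 8 arrays in both channels. Over the 75 members, the ratios of replicates 1 and 2 correlated with r = 0.65 (Spearman's rho 0.33), and those of the other pairs with r from -0.16 to 0.20.

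**Figure D2:**
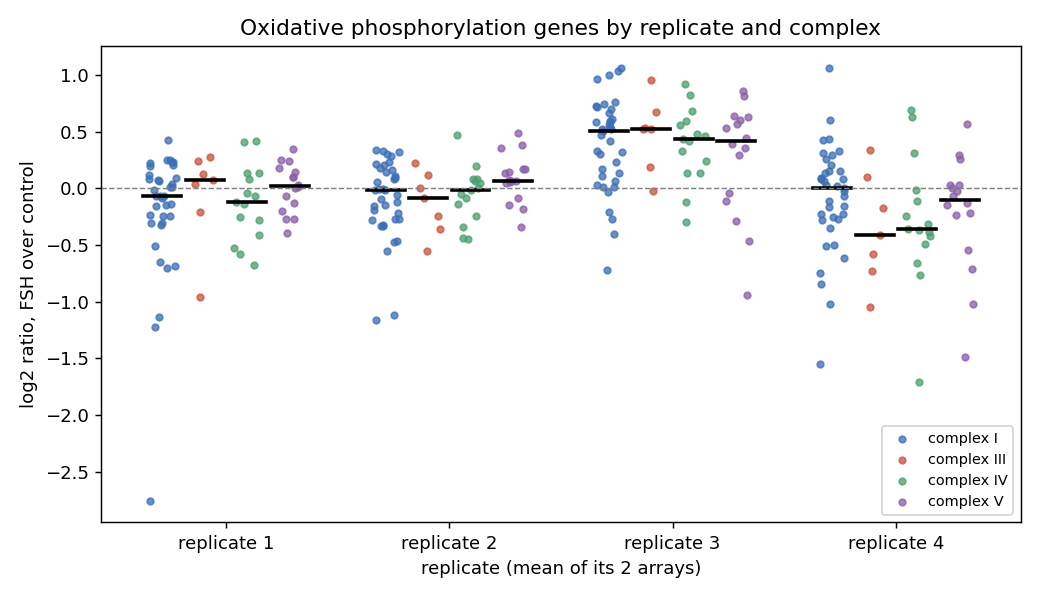
Log2 ratio of FSH over control of the 75 tested genes in each replicate (points, coloured by complex), each the mean of 2 arrays, with the median of each complex (black lines). In replicate 3 the medians of the 4 complexes lie between 0.41 and 0.53, and in the other replicates between -0.41 and 0.072.

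All 4 complexes shared the shift in replicate 3. Their medians there were 0.50 for complex I, 0.53 for complex III, 0.43 for complex IV and 0.41 for complex V. It was present on both slides, with a member median of 0.45 on slide 1 and 0.47 on slide 2. By role, the medians in replicate 3 differed. The supernumerary genes of complex I, with NDUFA4 and NDUFA4L2 counted by name, had a median of 0.54, with 28 of 31 above 0. The core genes had a median of 0.072, with 4 of 6 above 0. The 5 small subunits of complex III had a median of 0.53, with 5 of 5 above 0. In complex V the c-ring genes had a median of 0.63, the small membrane subunits 0.60, the peripheral stalk 0.37 and the F1 head -0.042. The 13 nuclear subunits of complex IV had a median of 0.43, with 12 of 13 above 0. This grouping by role describes 1 pair of pools and was not tested.

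In the single channels, the control pool of replicate 3 had a low signal for most members. The normalized log2 signal in control pool 3 was below that in the other 3 control pools for 59 of 75 members (78.7%), against 39.3% of all genes. The median difference between control pool 3 and the mean of the other control pools was -0.49 over the members and -0.0019 over all genes. Control pool 3 was the lowest of the 8 pools for 48 members (64%), against 18.5% of all genes. The median deviation of a member from its own mean over the pools was 0.055, 0.086, -0.057 and -0.10 in FSH pools 1 to 4. In the control pools it was 0.19, 0.14, -0.38 and 0.057.

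**Figure D3:**
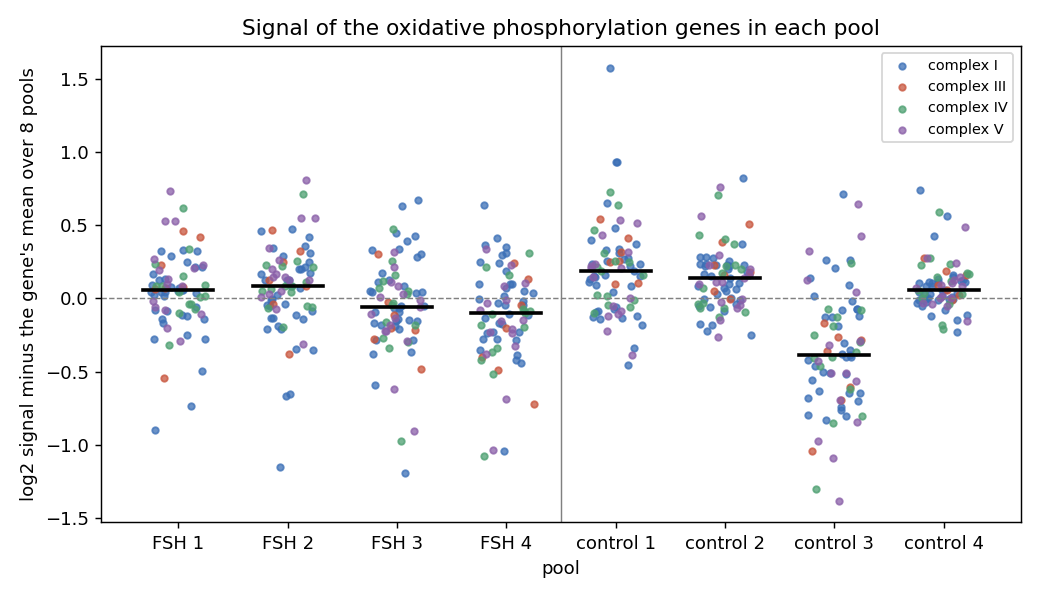
Normalized log2 signal of the 75 tested genes in each pool, as the deviation from the gene's mean over the 8 pools (points, coloured by complex), with the median of each pool (black lines). Control pool 3 has the lowest median, -0.38, and the other 7 medians lie between -0.10 and 0.19.

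Several members fell into a low and a high set of pools that did not follow FSH. For COX6B1 the signal was 13.24, 13.33, 11.65 and 11.54 in FSH pools 1 to 4 and 13.35, 13.32, 11.32 and 13.21 in control pools 1 to 4. The same 3 pools, FSH 3, FSH 4 and control 3, were lowest for ATP5O, which encodes the OSCP protein of the stalk, with 12.83, 12.90, 11.19 and 11.06 in the FSH pools and 12.63, 12.86, 10.71 and 12.58 in the control pools. UQCR10, a small subunit of complex III, had 11.55, 11.55, 10.60 and 10.37 in the FSH pools and 11.63, 11.59, 10.04 and 11.36 in the control pools. In these 3 genes the ratio was above 0 in replicate 3, where both pools were low, and negative in replicate 4, where the FSH pool was low and the control pool high. NDUFA9, with the same low pools, was below 0 in both. In ATP5O the ratios were 0.14, 0.050, 0.35 and -1.49 in replicates 1 to 4. In UQCR10 they were 0.034, 0.00072, 0.67 and -1.05. The same 3 pools were also lowest for some genes outside the members, HSD17B1 and GPI among them. Over the 75 members, deviations in FSH pool 3 correlated with those in FSH pool 4 (r = 0.88) and control pool 3 (r = 0.60). Those in FSH pool 1 correlated with FSH pool 2 (r = 0.88). Over all tested genes r was 0.56, 0.49 and 0.45 for these pairs, so the split was not particular to the members. Deviations from a common mean are tied to each other, and pools of a replicate share arrays, so these correlations are descriptions only.

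For other members control pool 3 was the highest control pool. For ATP5B the signal was 14.04, 14.05, 13.89 and 14.04 in the FSH pools and 14.03, 14.10, 14.55 and 14.25 in the control pools, so control pool 3 was highest and FSH pool 3 lowest. NDUFS1 had 10.00, 10.09, 10.40 and 10.47 in the FSH pools and 9.94, 10.03, 11.00 and 10.32 in the control pools, again highest in control pool 3. The core genes of complex I and the F1 head genes of complex V were split. Control pool 3 lay above the other control pools for 6 of these 11 genes (NDUFS1, NDUFS3, NDUFV2, ATP5A1, ATP5B and ATP5C1) and below them for the other 5 (NDUFS7, NDUFS8, NDUFV1, ATP5D and ATP5E).

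Control pool 3 also stood apart in other measures. Its share of probes above the detection limit was 46.3% and 33.9% on its 2 arrays, against 68.9% to 84.0% for the other control pools. In the FSH channel it was 42.5% for FSH pool 1 on slide 2 and 68.8% to 86.4% on the other 7 arrays. Of 18 oocyte markers tested, 8 exceeded the mean of control pools 1 and 2 by over 0.5 in control pool 3, 3 did so in control pool 4, 1 in FSH pool 4 and 0 in the other pools. The mean normalized log2 signal of the markers was 7.61 in control pool 3, 7.29 in control pool 4 and between 7.10 and 7.15 in the other 6 pools. Of these 18 markers, 12 exceeded the limit in control pool 3 and 14 to 18 in the other pools. As ratios of FSH over control, the oocyte markers had a median of -0.21, with 13 of 18 means below 0. The granulosa and cumulus markers had a median of -0.14, with 12 of 12 means below 0 and 2 lower at an unadjusted p under 0.05 in limma. Of all genes, 48.9% had a mean below 0 and 5.33% were lower at that p. The means of the 12 markers ran from -0.91 to -0.017. Some were near background: AMHR2 exceeded the limit on 3 of 8 control arrays and FOXL2 on 5 of 8. The part of the probe detection and of these markers in the member ratios was not tested. Without replicate 3 the member median was -0.078, with 47 of 75 members below 0, and without replicate 4 it was 0.13, with 23 below 0. The sign of the small overall median therefore depended on which of these replicates was kept, and 0 members passed the adjusted limma test in either case.

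**Figure D4:**
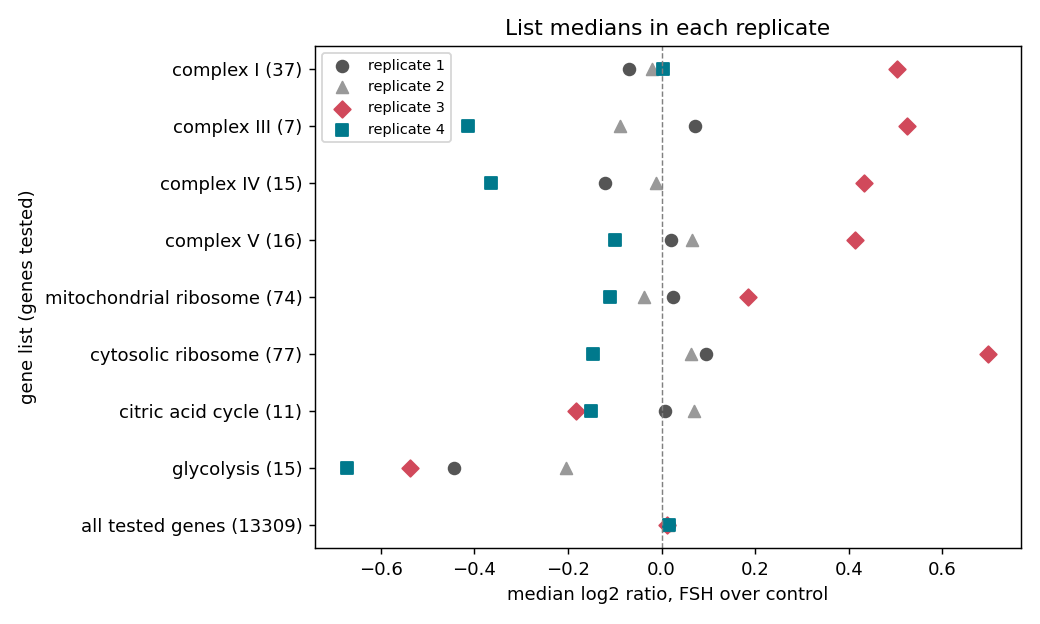
Median log2 ratio of FSH over control in each replicate (symbols) for the 4 complexes, other lists of mitochondrial and energy genes, and all tested genes, with the number of genes in brackets. In replicate 3 the 4 complexes and both ribosome lists lie above 0, and the citric acid cycle and glycolysis lists lie below 0.

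Genes of neighbouring processes were read from the same fit. The mitochondrial ribosome list, 74 genes for translation of the mitochondrially encoded subunits, had a median of -0.0035 and medians of 0.025, -0.037, 0.18 and -0.11 in replicates 1 to 4. The cytosolic ribosome list, 77 genes, had a median of 0.13 and medians of 0.094, 0.064, 0.70 and -0.15. Both lists were highest in replicate 3 and lowest in replicate 4, as the subunit genes were. The citric acid cycle, which supplies NADH to complex I, ran otherwise, with medians of 0.0085, 0.070, -0.18 and -0.15 over 11 genes. Of these, 9 had a mean below 0, against 48.9% of all genes. None of its 11 genes had an unadjusted p under 0.05, and 0 passed the adjusted limma test.

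A list of 15 genes held complex II, the electron carriers and ubiquinone synthesis. It also held CYC1, a subunit gene of complex III, and NDUFAB1, one of complex I, which the name rule does not take. Of the 15, 11 had a mean above 0 and 4 below, where 48.9% of all genes had a mean below 0. At an unadjusted p under 0.05 in limma, 2 were higher and 0 lower, against 5.75% and 5.33% of all genes. SDHD, a membrane anchor of complex II, had ratios of 0.33, 0.62, 0.33 and 1.25, a mean of 0.63 ± 0.43 (limma adjusted p = 0.306, and 0.0402 with the replicate block). The mean of SDHD was 0.495 from scanner intensities with loess (limma adjusted p = 0.595) and 0.43 as the median over all its tested probes. Its partner SDHA, the flavoprotein of complex II, had ratios of -0.98, -0.37, -0.50 and 0.18 and a mean of -0.42 ± 0.47. COQ6, an enzyme of ubiquinone synthesis, stood at 0.34 ± 0.31. CYCS, cytochrome c itself, stood at 0.14 ± 0.11. Of 26 assembly factors of complexes I, III, IV and V, 0 had an unadjusted p under 0.05, with list medians of 0.0072 (8 genes), 0.090 (3 genes), 0.034 (11 genes) and 0.048 (4 genes). Of 14 regulators of mitochondrial biogenesis, 1 was lower at an unadjusted p under 0.05 in limma, against 5.33% of all genes. It was POLRMT, the mitochondrial RNA polymerase (-0.32 ± 0.24). PPARGC1A, the coactivator PGC-1alpha, stood at 0.15 ± 0.16. TFAM, the mitochondrial DNA packaging and transcription factor, stood at 0.083 ± 0.20. These 3 genes were near background, above the limit on 7, 6 and 6 of 8 FSH arrays and 7, 5 and 5 control arrays. From scanner intensities with loess their means were -0.099, 0.039 and 0.019. Of 8 carriers and channels, 1 was lower at an unadjusted p under 0.05 in limma, against 5.33% of all genes. It was VDAC2, an outer membrane channel (-0.44 ± 0.37).

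Glycolysis genes contrasted with the subunit genes in their values, though 0 of them passed the adjusted limma test on the 4 replicate values. Of 15 genes, 13 had a mean below 0, against 48.9% of all genes. In all 4 replicates 9 were below 0, against 8.88% of all genes. At an unadjusted p under 0.05, 10 were lower, against 5.33% of all genes. The list median was -0.56. By replicate it was -0.44, -0.20, -0.54 and -0.67. ENO1, the enolase gene, had ratios of -1.38, -0.91, -0.69 and -1.28, a mean of -1.07 ± 0.32 (limma adjusted p = 0.265). LDHA, which converts pyruvate to lactate, stood at -0.83 ± 0.30 and TPI1, triose phosphate isomerase, at -1.04 ± 0.45. The hexokinase genes HK1 and HK2 stood at -0.99 ± 0.53 and -0.41 ± 0.20, and the phosphofructokinase gene PFKP at -0.53 ± 0.23. These 6 genes were below 0 in each replicate. With the replicate block the limma adjusted p was 0.00225 for ENO1, 0.00423 for TPI1, 0.00976 for HK1, 0.0331 for PFKP, 0.0501 for LDHA and 0.0517 for HK2. With a dye term added LDHA also passed (limma adjusted p = 0.0449). Without replicate 3 TPI1 passed (limma adjusted p = 0.0233). The sizes of some depended on the processing: as the median over all tested probes, ENO1 stood at -0.62 and HK1 at -0.63, and with median centring LDHA stood at -0.47. LDHA was -0.53 on slide 1 and -1.13 on slide 2. LDHB, the lactate dehydrogenase isoform of oxidative tissues, stood at 0.29 ± 0.28. That glycolysis genes were lower was known from earlier work on these arrays, and the difference between the glycolysis and subunit lists was not tested.

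In the deposited ratios the member means were alike in part on the 2 slides. The member median was -0.011 on slide 1 and 0.076 on slide 2, and 52 of 75 members had the same sign on both. Over the 75 members the slide means correlated with r = 0.66, and over all genes with r = 0.45, and both slides hold the same pools. In the limma test of the difference between slides, 3 of 75 members passed an adjusted p of 0.05, against 8.31% of all genes (3.89% higher and 4.42% lower with FSH in Cy5). NDUFS6, an accessory subunit near the iron-sulphur clusters, averaged -0.31 on slide 1 and 0.14 on slide 2 (limma adjusted p = 0.0440). NDUFV3, a small subunit at the flavin site, averaged -0.30 and 0.13 (limma adjusted p = 0.0380). COX4NB averaged -0.36 and 0.086 (limma adjusted p = 0.0482). All 3 were lower with FSH in Cy5, and in each the sign turned between the slides. From scanner intensities with loess 48 of 75 members (64%) passed this test, against 30.7% of all genes. With any 1 replicate left out of the deposited ratios 0 members passed, and 327 to 583 of the 13309 genes did.

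**Figure D5:**
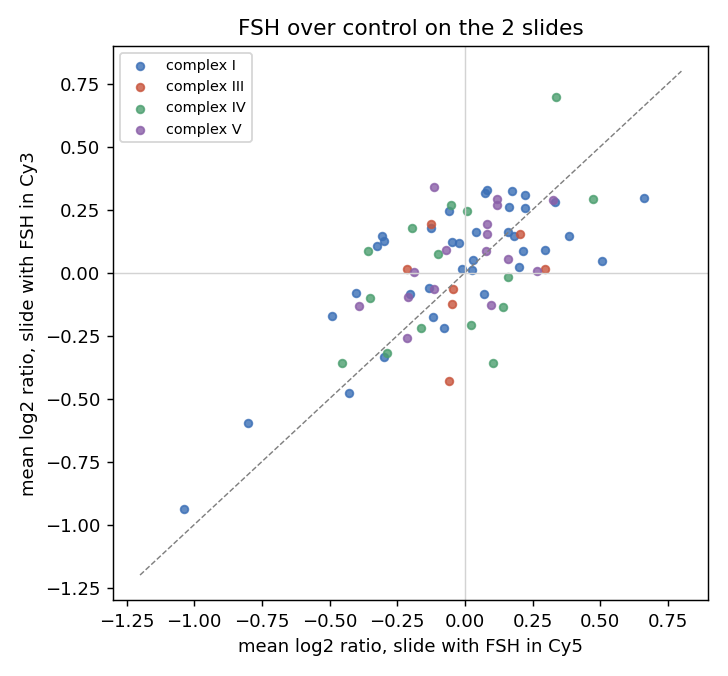
Mean log2 ratio of FSH over control of the 75 tested genes on slide 1, FSH in Cy5 (horizontal axis), and slide 2, FSH in Cy3 (vertical axis), coloured by complex; the dashed line marks equality. The points follow the line with r = 0.66, and NDUFA13 and NDUFA9 lie lowest on both slides.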

How the data were processed

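Per the labels' protocols, total RNA was amplified in a 2-round T7 procedure and labelled with Cy3 or Cy5. The deposited scanner files hold spot intensity and local background on a linear scale. The deposited series matrix holds log2 ratios, which equal the authors' normalized Cy5 over Cy3 table with the sign turned for slide 2. The sources used here do not give how the authors normalized these log2 ratios. Scale, centring and direction were read from the values: column medians lay between -0.0038 and 0.018, and r with the scanner log2 ratios was 0.45 to 0.77.

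The matrix ratios, averaged over the 2 arrays of a replicate, were tested with limma 3.58.1 in R 4.3.3 (intercept, eBayes, Benjamini-Hochberg over 13309 genes at 0.05). A gene was tested if its probe exceeded the mean plus 2 SD of 153 negative control spots in at least 3 of 4 replicates in a channel. Pool levels came from scanner intensities corrected by normexp (offset 50), loess and Aquantile (statmod 1.5.0 for the block fits). A matched pair of pools shares both its arrays, so the number pairs them by design, and every ratio is already within a pair. The 2 arrays of a number correlated with r = 0.32 to 0.65 across genes. Of the 76 member symbols, 56 were in the RefSeq gene table of another assembly, so no coordinates are given. The array number limits the precision. The fit was tested on simulated data.

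The members and gene lists were chosen with earlier results of these data known. Genes were named by a rule: members with an unadjusted p under 0.05, the highest and lowest mean of each complex, fixed core subunits and isoforms, and the 6 other pathway genes with the lowest p. All other named genes were chosen with their values in view. Markers of red blood cells (median 0.089), immune cells (0.038) and theca, stroma and endothelium (-0.065) were also read, with 0 genes past the adjusted test.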

Additional observations from a re-analysis of the deposited data

Results flagged for a closer look

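In 52 groups of 4 replicates (the named genes and the list medians), 1 replicate was checked for lying far from the other 3. By chance this check marks about 1 group in 20 where groups are picked without sight of their values. Many of the named genes, COX8A, ATP5E, NDUFS6, ATP5O and CYCS among them, were chosen with their values in view. The number flagged can therefore not be set against that rate. The median of complex I was 0.50 in replicate 3 and between -0.070 and 0.0025 in the others. NDUFS1 stood at -0.72 in replicate 3 and between 0.21 and 0.29 in the others. COX8A, a complex IV subunit gene, stood at 0.68 in replicate 3 and between -0.58 and -0.42 in the others. ATP5E stood at 0.63 in replicate 3 and between 0.024 and 0.10 in the others. NDUFS6 stood at -0.85 in replicate 4 and between 0.11 and 0.30 in the others, and ATP5O at -1.49 in replicate 4 and between 0.050 and 0.35 in the others. CYCS stood at -0.022 in replicate 2 and between 0.18 and 0.20 in the others.

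Between the slides, the ratio with FSH in Cy5 minus that with FSH in Cy3 was -0.45 for NDUFS6, -0.42 for NDUFV3 and -0.45 for COX4NB, each past an adjusted p of 0.05 in limma.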

How the results depend on the processing

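Of the settings run, 1 changed the count of members past the adjusted limma test. With the replicate block and a dye term it was 1 (COX7A2L) and 192 genes passed over the whole array. With the replicate block alone 0 members and 250 genes passed, and the block, which matches the pairing of the pools, changed no other member's call. Outside the members it added calls for SDHD, ENO1, TPI1, HK1 and PFKP. Over all genes, leaving out 1 replicate gave 0 to 19 calls, the 19 without replicate 3, and leaving out replicates 3 and 4 gave 16, with 0 members among them. Counted over 115 probes, 51 had a mean below 0. From scanner intensities with loess the slide difference passed for 48 members and 4086 genes, and with 1 replicate left out for 0 members and 327 to 583 genes. The cause of these changes was not tested. The member median was 0.0095 from scanner intensities with loess, 0.035 with median centring, 0.029 without dim-probe filtering and -0.019 without replicates 3 and 4. Leaving out COX4NB, ATP5S and COX7A2L, an alternative chosen after seeing the data, gave 0.029.

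Signs turned in 33 of the gene values recomputed, none of them past the threshold. NDUFS1 was -0.080 from scanner intensities with loess, -0.032 with median centring and -0.011 on the slide with FSH in Cy5, where COX4 was -0.051. The median over all probes of NDUFA10 was -0.019. On the slide with FSH in Cy3, NDUFS7 was 0.10, COX7A1 0.076, NDUFS6 0.14, NDUFV3 0.13 and COX4NB 0.086. Without replicates 3 and 4, NDUFV1 was 0.081, COX4 -0.0045, COX7A2 -0.041, NDUFS6 0.21, COX4NB 8.1e-05, ATP5O 0.096, UQCR10 0.018 and TFAM -0.035. With 1 replicate left out, the mean ranged from -0.080 to 0.26 for ATP5A1, -0.43 to 0.18 for ATP5O, -0.0082 to 0.17 for COX4, -0.68 to 0.029 for COX6B1 and -0.29 to 0.15 for COX7A1. The range was -0.094 to 0.24 for NDUFS1, -0.21 to 0.17 for NDUFS6, -0.34 to 0.24 for UQCR10 and -0.39 to 0.25 for UQCRQ. Signal near background limits COX6A2 and the 9 tested members below the limit on at least 1 control array, NDUFA4L2, NDUFV1, UQCRC1, UQCRH and NDUFA10 among them.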
